A study of Arabidopsis thaliana with 32 samples.

Results

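Of the 2989 Arabidopsis thaliana genes in which chromatin-bound elongating RNA polymerase II was called higher in tfiis-1 than in Col-0 after 10 min of heat shock, 376 were called at no other time and in neither direction elsewhere. These 376 genes, called the 10 min only genes here, stand in the deposited list of sites higher in tfiis-1 at 10 min and in none of the other 7 deposited lists. They hold 408 distinct summits of the 3743 in that list, where a summit is the single base pair at which the authors called one genotype above the other. The whole series names 9114 genes and 29485 distinct summits. Since membership is defined by the authors' calls, the counts that follow describe the lists and carry no test.

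The compared groups were Col-0 seedlings, the wild type, and tfiis-1 seedlings, a mutant of the gene for the elongation factor TFIIS, either without heat shock (0 min) or after 10 min, 30 min or 3 h of it. All plants came from in vitro culture and were 14 days past stratification, and the source material of every sample was labelled as whole seedlings. ChIP-seq used an antibody against RNA polymerase II whose C-terminal repeats carry phosphate on serine 2 (S2P). Each of the 8 combinations of genotype and time had 3 ChIP libraries, described in the series' design as biological triplicates, and 1 input library.

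RNA polymerase II often slips backwards on the template, for instance at nucleosomes, and then stalls with the end of its transcript displaced from the active site. TFIIS enters the polymerase and stimulates cleavage of that displaced end, so that transcription can go on. Serine 2 phosphorylation accumulates as the polymerase moves through the gene body and towards the poly(A) site, where cleavage of the transcript and termination follow. Heat shock redirects transcription within minutes, with strong induction of chaperone genes.

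No list gives values for single libraries, and so no level, spread between replicates or depth can be given for any summit. A call absent from a list is therefore a site that did not pass the authors' threshold, which no source used here gives, and is no measurement of equal signal. In seedlings, moreover, more polymerase on a gene in each cell and more cells that transcribe it cannot be told apart. Positions are given along the annotated gene in the direction of transcription, from 0 at its start to 1 at its end, in TAIR10 for chromosome positions. Intervals are exact (Clopper-Pearson) 95% intervals and cover counting error only. Neighbouring summits are not independent.

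All 376 genes are protein-coding. They were 1.37% of the 27444 nuclear protein-coding genes, while 10.9% of those genes were called higher in tfiis-1 at 10 min at all. Among the other 10 min genes, 1267 also stood in another tfiis-1-higher list and in no Col-0-higher list, 344 also stood in a Col-0-higher list only, and 1002 stood in lists of both directions. By number of other lists, 639 genes were in 1 other list, 948 in 2, 694 in 3, 274 in 4 and 58 in 5. The genes just outside the definition are the 639 with 1 other list. That list was the tfiis-1-higher list at 3 h for 185 genes, at 30 min for 159 and at 0 min for 30, and a Col-0-higher list for the rest, from 3 h for 247, from 30 min for 14, from 0 min for 3 and from 10 min for 1. The 10 min only genes lay on all 5 chromosomes, with 111 on chromosome 1, 49 on chromosome 2, 89 on chromosome 3, 54 on chromosome 4 and 73 on chromosome 5, or 1.14% to 1.63% of the coding genes of each.

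Most of these genes had a single summit. There were 344 genes with 1 summit (91.5%, interval 88.2% to 94.1%), 28 with 2, 2 with 3 and 2 with 4. Single-summit genes made up 76.6% of the 10 min genes also in another tfiis-1-higher list, 92.2% of those also in a Col-0-higher list and 72.9% of those in lists of both directions. In genes of over 3000 bp the single-summit share was 84.5% among the 10 min only genes, against 68.5%, 88.5% and 63.8% in the same 3 sets. In the 28 genes with 2 summits, the upstream one lay at a median position of 0.50 and the downstream one at 0.86. Their median spacing was 828 bp, with a range of 338 to 3124 bp. The downstream summit was in the downstream 50% of the gene in 27 of the 28.

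The vacuolar invertase gene ATBETAFRUCT4 (AT1G12240), whose enzyme splits sucrose in the vacuole, carried 4 summits. In this gene of 4013 bp they stood at positions 0.39, 0.50, 0.82 and 0.99, on chromosome 1 at base pairs 4155218, 4155659, 4156945 and 4157597. The series of summits thus spanned the gene from its middle to 56 bp before its end. Both of its neighbours, AT1G12230 and AT1G12244, were also 10 min only genes. AT4G19530, a gene of 5539 bp, also had 4 summits, at 0.33, 0.59, 0.84 and 0.999, the last of them 7 bp before its end. Its neighbour AT4G19520 on the opposite strand, at 8012 bp the longest of the 10 min only genes, had 1 summit at 0.19. AT2G32150 had 3 summits, at 0.47, 0.67 and 0.92 of its 2061 bp. AT4G16920, with 7851 bp, had 3 summits as well, at 0.53, 0.58 and 0.70. Among the genes with 2 summits, ordered by shortness, were OXS3 (0.39 and 0.69), AT5G03230 (0.17 and 0.78), AT4G13572 (0.05 and 0.56), the Nudix hydrolase gene NUDT4 (0.47 and 0.89), AT3G10113 (0.16 and 0.44) and VHA-E3 (0.65 and 0.87), for subunit E of the vacuolar proton pump.

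Along the gene, the summits crowded towards the end, and a smaller group stood at the start. The 408 summits made 414 pairs of summit and gene, because 6 summits fell inside 2 overlapping 10 min only genes. Their median position was 0.78, with quartiles at 0.45 and 0.92. The last 10% of the gene held 130 pairs (31.4%, interval 27.0% to 36.1%) and the first 10% held 46 (11.1%, interval 8.25% to 14.5%). Divided into 10 equal parts, the genes held 9 pairs in part 3, 24 in part 5, 47 in part 8 and 68 in part 9. In base pairs, the median summit lay 385 bp before the annotated end, and 230 of 414 (55.6%) were within 500 bp of it.

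In the other 10 min genes the share of summits at the gene end was of the same order, whereas the share at the start was lower. The last 10% of the gene held 35.8% of summits in genes also in another tfiis-1-higher list, 29.1% in genes also in a Col-0-higher list and 417 of 1391 in genes of both directions. Median positions in these sets were 0.79, 0.81 and 0.76. The first 10% held 3.32% (interval 2.51% to 4.29%), 5.03% (interval 3.05% to 7.74%) and 3.38% (interval 2.49% to 4.47%) of their summits, and 121 of 3428 pairs (3.53%) over all of them together. Genes absent from the 10 min tfiis-1-higher list and named in 1 other list only had varied profiles. The median position was 0.51 in the 87 genes that were tfiis-1-higher at 0 min only, 0.60 in the 326 genes at 30 min only and 0.42 in the 1929 genes at 3 h only, and the last 10% held 15.4%, 12.6% and 4.12% of their summits. In the 116 genes that were Col-0-higher at 30 min only, the median was 0.75 and the last 10% held 34.1%, close to the 10 min only values. In the 649 genes that were Col-0-higher at 3 h only, these values were 0.92 and 53.0%. The share at the start of single-list genes ranged around that of the 10 min only genes. It was 10.2% (interval 9.12% to 11.3%) for tfiis-1-higher at 3 h only, 9.52% (interval 7.45% to 11.9%) for Col-0-higher at 3 h only, 6.82% for Col-0-higher at 30 min only and 6 of 34 for Col-0-higher at 10 min only. It was 6 of 406 for tfiis-1-higher at 30 min only and 0 of 91 at 0 min only. These sets come from different calls, and whether they differ beyond the error of the calls was not tested.

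**Figure D1:**
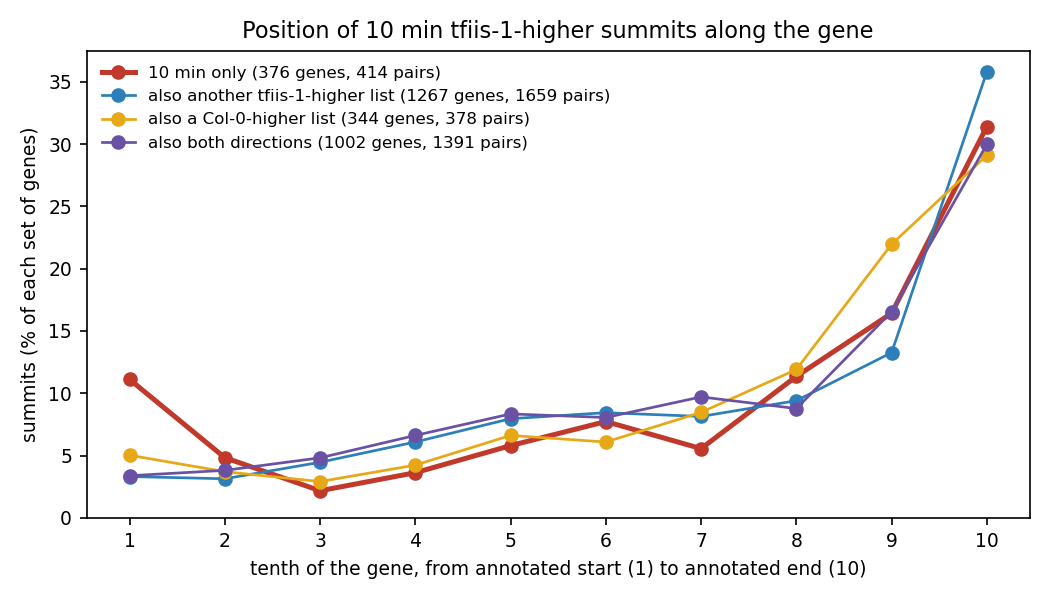
Share of 10 min tfiis-1-higher summits (vertical axis, percent of each set) in each of 10 equal parts of the annotated gene from start to end (horizontal axis), for the 10 min only genes and the 3 sets of other 10 min genes. All 4 lines end highest in the last part, at 29.1% to 35.8%, and the 10 min only line is the highest in the first part, at 11.1% against 3.32% to 5.03%.

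The 10 min only genes were short for a 10 min list but not for the genome. Their median length was 2144.5 bp, against 2686 bp for all other 10 min genes and 2078 bp for all nuclear protein-coding genes. Those 10 min genes also in another tfiis-1-higher list had a median of 2720 bp, those in lists of both directions 2916.5 bp and those also in a Col-0-higher list 1993.5 bp. Of the 68 10 min genes of up to 1000 bp, 34 were in no other list (50.0%, interval 37.6% to 62.4%). This share was 25.4% of 248 genes of 1000 to 1500 bp, 12.8% of 1048 genes of 2000 to 3000 bp and 3.50% of 143 genes over 6000 bp (interval 1.14% to 7.97%). The share of genes in any of the 8 lists rose with length at the same time, from 8.13% of coding genes of up to 1000 bp to 63.0% of those over 6000 bp. As a share of all coding genes, the 10 min only genes ranged between 0.568% and 1.80% over the 7 length classes without a steady rise. What part the rising share of called genes has in the length pattern was not tested.

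**Figure D2:**
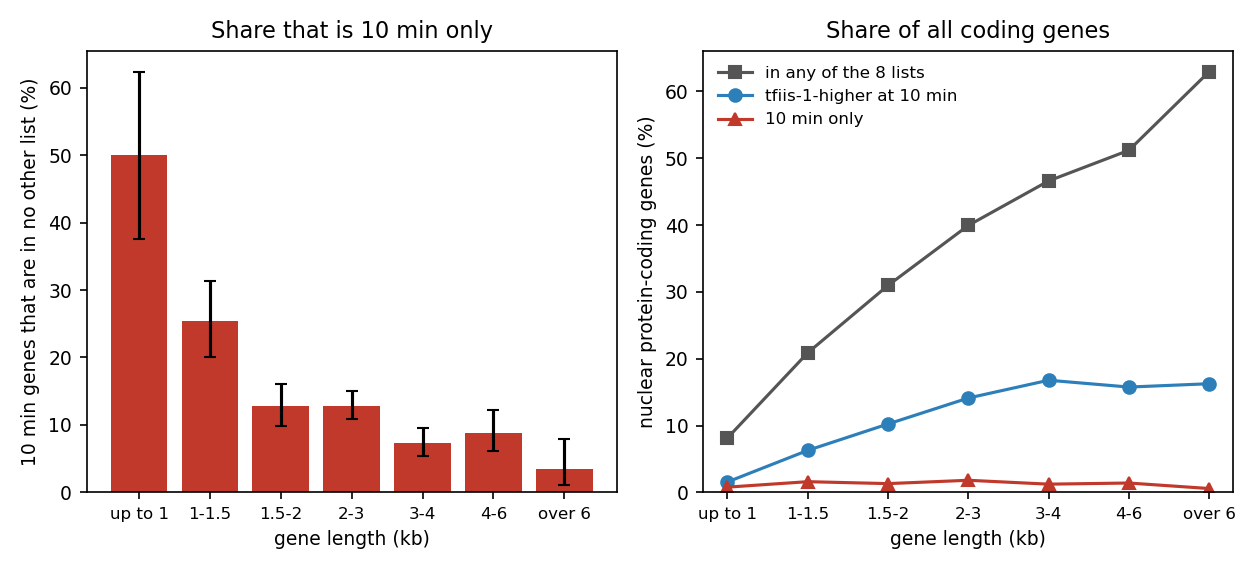
Left, the share of 10 min tfiis-1-higher genes that are in no other list (percent, bars with exact 95% intervals) by annotated gene length in kb. The bars fall from 50.0% at up to 1 kb to 3.50% over 6 kb. Right, the percent of all nuclear protein-coding genes of each length that are in any list, in the 10 min list or 10 min only; the first rises from 8.13% to 63.0% while the last lies between 0.568% and 1.80%.

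The extremes of length show what a summit can mean in a small gene. The shortest of these genes, AT3G57072 with 138 bp, had its summit 14 bp before its end. AT5G40855, with 237 bp, had a summit at 0.75 that lay inside the annotated gene AT5G40850 too, and a Col-0-higher 3 h summit of that gene stood 63 bp away. AT3G57900, with 294 bp, had its summit at 0.56. The long gene AT5G06670 (7523 bp) had its summit 213 bp before its end. In genes of 2000 to 3000 bp, the last 10% held 39.7% of 146 summit and gene pairs, the first 10% held 14.4% and the median position was 0.84. In genes of up to 1000 bp those values were 14.7%, 2.94% and 0.70, over 34 pairs.

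Most summits at gene starts lay near another annotated gene. Of the 46 pairs in the first 10% of the named gene, 44 had another annotated gene within 500 bp of the summit (95.7%, interval 85.2% to 99.5%). Over all positions this held for 204 of the 414 pairs (49.3%), and for 71 of the 238 pairs between the first and the last 10%. All 44 neighbours of the start summits lay upstream of the named gene or overlapped its start. For summits so near a gene border, a close neighbour and its side are in large part set by position. No share over all gene starts was computed. The lists give the strand of 36 of the 44 neighbours, and all 36 were on the named gene's strand. In 2 of the 44 cases the summit lay inside the neighbour. The other 8 neighbours are in no list and their strand was not used here. The median summit stood 124 bp after the start of its named gene and 205 bp from the neighbour.

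Many of these upstream neighbours were called at other times. Of the 44, 36 (81.8%) were in at least 1 of the 8 lists, where 33.2% of all nuclear protein-coding genes were and 50.5% of the 752 genes directly flanking the 10 min only genes were. This was not particular to gene starts. Genes within 500 bp of a 10 min only summit were in a list in 162 of 204 cases over all positions and 75 of 89 at gene ends. At starts in the other 3 sets of 10 min genes, the counts were 40 of 44, 12 of 15 and 20 of 29. The neighbour stood in the tfiis-1-higher list at 0 min in 10 cases, at 10 min in 12, at 30 min in 25 and at 3 h in 26, and among the Col-0-higher calls of 3 h in 19 and of 30 min in 5. A summit of another list, named for another gene, was within 500 bp of 23 of the 46 start summits (50.0%, interval 34.9% to 65.1%). It came from the Col-0-higher list at 3 h in 17 cases and at 30 min in 2, and from the tfiis-1-higher list at 30 min in 3 and at 3 h in 1. In 20 of the 23 cases that summit stood in the last 10% of its own gene.

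Individual cases show the layout. In NTRB (AT4G35460), for an NADPH-dependent thioredoxin reductase, the summit at base pair 16842227 of chromosome 4 lay 53 bp after the start. It was 54 bp from the neighbour AT4G35450 and 139 bp from a Col-0-higher 3 h summit of that neighbour. The most upstream summits of all were those of AT1G13310, AT5G01700, AT3G05550 and AT3G27860, at 3, 11, 6 and 25 bp after the start, with a neighbouring gene 271, 71, 89 and 113 bp away. For AT3G05550 and AT3G27860, a Col-0-higher 3 h summit of that neighbour was 304 and 229 bp away. NRPD2B, a paralogue of the second-largest subunit of the plant-specific RNA polymerases that serve DNA silencing, had its summit 214 bp after its start and 271 bp from AT3G18080. Named start cases chosen after their values were seen included EB1C, for a microtubule plus-end protein (109 bp after the start), VPS9A, for an activator of Rab5 GTPases (274 bp), and the TBP-associated factor gene TAF14 (26 bp).

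The same layout was found in the other 10 min genes, at lower frequency among all summits. There, 44 of 55 start summits in genes also in another tfiis-1-higher list, 15 of 19 in genes also in a Col-0-higher list and 29 of 47 in genes of both directions had another gene within 500 bp. That gene was on the same strand in 39 of 40, 11 of 12 and 18 of 20 cases with a known strand. Among summits with no other annotated gene within 500 bp, the first 10% held 2 of 210 in the 10 min only genes (0.952%, interval 0.116% to 3.40%). The other sets had 11 of 1151, 4 of 192 and 18 of 1020 such summits there. Away from other genes, the intervals of these shares overlapped.

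**Figure D3:**
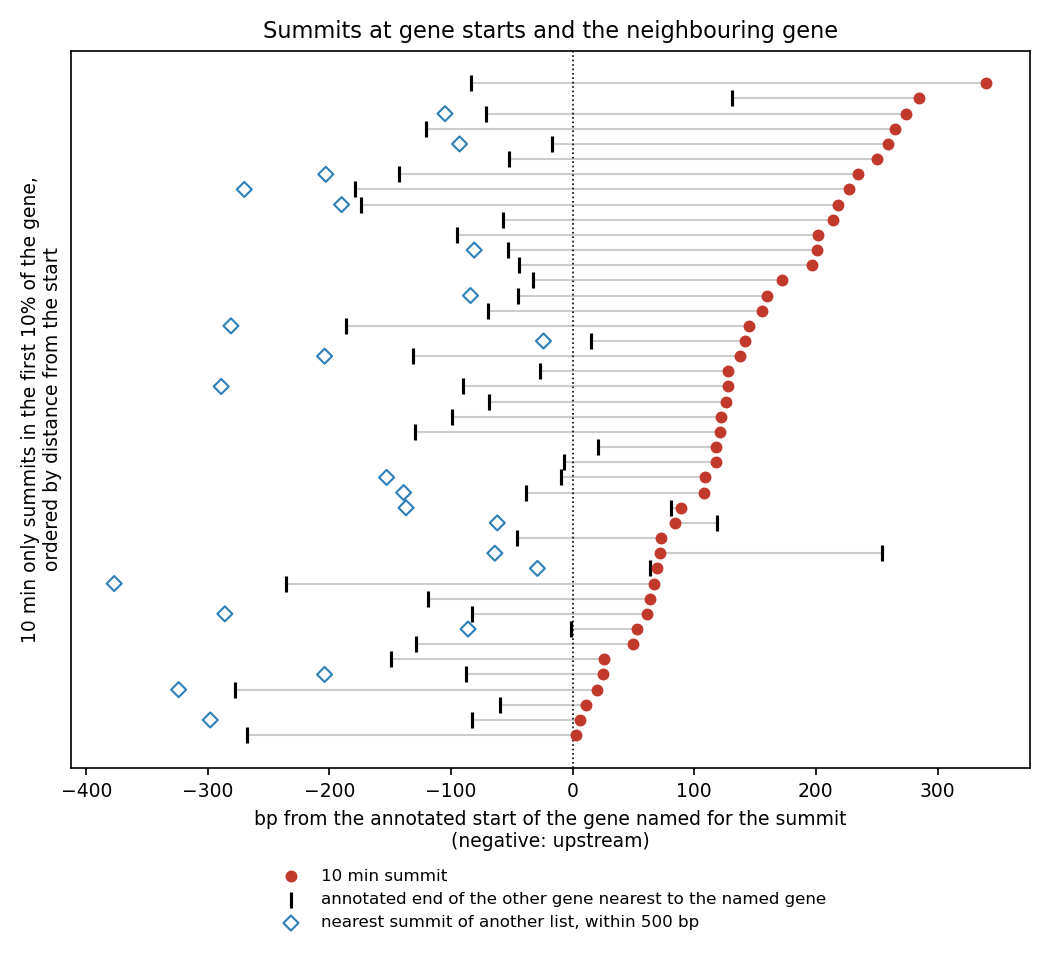
The 44 summits in the first 10% of 10 min only genes that have another annotated gene within 500 bp, each on its own line. The horizontal axis is the distance in bp from the named gene's annotated start; circles are the summits, bars the nearest end of the other gene and open diamonds summits of other lists within 500 bp. The diamonds lie to the left of the circles, and so does the other gene's end in all but 2 lines, in which the summit is inside the other gene.

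At gene ends the neighbour was usually on the opposite strand. Of the 130 summits in the last 10% of a 10 min only gene, 89 had another annotated gene within 500 bp, and 21 were inside it. The strand of that gene is known from the lists in 75 cases: it was opposite in 67 and the same in 8. Opposite strands were seen in 145 of 201, 62 of 65 and 106 of 136 such cases in the sets also in another tfiis-1-higher list, also in a Col-0-higher list and in both directions. Over all genes directly downstream of a 10 min only gene and with a strand in the lists, 71 of 192 (37.0%) were on its strand and the rest opposite. The same-strand share was 46.0%, 31.6% and 43.1% in the other 3 sets. A summit of another list and another gene was within 500 bp of 32 of the 130 end summits (24.6%) and of 19 of the 238 summits in between (7.98%). Over all positions, 74 of 414 pairs (17.9%, interval 14.3% to 21.9%) had such a summit nearby, 45 of them from the Col-0-higher list at 3 h, and in 59 of the 74 it stood in the last 10% of its gene. The other 3 sets had 137 of 1659, 63 of 378 and 114 of 1391 such pairs. A 10 min only gene is therefore not always a 10 min only locus: 302 of the 376 genes had no summit of another list within 500 bp of any of their own.

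Some members shared a summit or a border. There were 17 pairs of adjacent 10 min only genes, made of 33 genes, and 6 of these pairs shared a summit within overlapping annotations. One such pair was JAL34 and JR1, genes for jacalin-related lectins on opposite strands, with the shared summit at 0.93 of JAL34 and 0.90 of JR1. Another 20 summits lay inside a 10 min only gene and inside a gene with further calls. Among genes directly flanking the 10 min only genes, 161 of 752 (21.4%) were called at 10 min, against 15.4%, 21.1% and 15.8% for the other 3 sets of 10 min genes.

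By function, the photosystem genes held the most members of the 19 gene groups compared. Of 52 nuclear genes for photosystem subunits and associated proteins, antenna proteins and photosynthetic electron transport, 27 (51.9%) were called higher in tfiis-1 at 10 min, where 10.9% of all coding genes were. Of the 27 genes, 7 were in no other list (13.5% of the group, interval 5.59% to 25.8%), where 1.37% of all coding genes were. These groups were drawn up with results of these data known, so the counts describe them and are not tested. Across all 19 groups, 213 of 752 genes were called at 10 min and 16 were 10 min only. Over all 27444 coding genes the counts were 2989 (10.9%) and 376 (1.37%).

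The 7 photosystem genes were all short, at 720 to 1698 bp, and had 1 summit each. For photosystem I, PSAG, a subunit at its antenna side, had its summit at 0.84, and LHCA3, an antenna protein, at 0.87. For photosystem II, the small subunits PSBY, PSBW, PSBTN and PSBX had theirs at 0.88, 0.79, 0.76 and 0.41, and PSBQA, part of the oxygen-evolving complex, at 0.86. In 6 of the 7 genes the summit was thus past 0.75, and in PSBX it stood before the middle. The other 20 photosystem genes called at 10 min mostly reappeared with the opposite sign. Of these, 15 were also Col-0-higher and in no other tfiis-1-higher list, 14 of them at 3 h and 6 at 30 min; they included the antenna genes CAB1, CAB2, CAB3 and LHCB5. Their 15 summits had a median position of 0.75, against 0.84 for the 7. Another 4 of the group (NPQ4, LQY1, PBCP and PSI-P) were called higher in tfiis-1 at 30 min too, and PSBO1 was in lists of both directions. Near-identical copies such as CAB1, CAB2 and CAB3 are uncertain, because the treatment of reads that match several places is unknown here. FD1, for a leaf ferredoxin, and RBCS2B, for a small subunit of Rubisco, were outside this group and were also 10 min only, with summits at 0.81 and 0.74; both were named after their values were seen.

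Among heat shock proteins and chaperones, 19 of 50 genes were called at 10 min. In no other list was 1 of the 50, or 2.0% beside the 1.37% of all coding genes: HSP23.6-MITO, which encodes a small heat shock protein of mitochondria. The 50 were matched by gene symbol or synonym, so chaperone genes without such a name among the 10 min only genes are missed. The summit of HSP23.6-MITO stood at 0.32 of its 1185 bp. Of the other 18 genes, 13 were in lists of both directions, among them CPN60A, J3 and HSP81-3. All 3 heat shock transcription factor genes called at 10 min, HSFA2, HSFA7A and HSFB2A, were also tfiis-1-higher at 3 h.

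Several large housekeeping groups, as drawn up by gene symbol and synonym, held no 10 min only gene. This held for ribosomal proteins of the cytosol and organelles (17 of 51 called at 10 min), translation factors (8 of 28), the proteasome (8 of 38), the respiratory chain with chloroplast NDH and ATP synthases (7 of 33), SR splicing factors and the spliceosome (11 of 32), vesicle traffic (24 of 121), protein phosphatases 2C and 2A (12 of 20) and actin, tubulin and associated proteins (10 of 53). It held also for heat shock transcription factors (3 of 21), for histones (1 of 23) and for aminoacyl-tRNA synthetases (1 of 10). With 1.37% of all coding genes being members, a count of 0 in such groups says little: the upper interval bounds reached from 3.0% for vesicle traffic to 30.8% for aminoacyl-tRNA synthetases. The groups are also incomplete, so these counts do not show that such functions are absent. Among the 10 min only genes outside the groups were the exocyst gene EXO70E2, VPS9A and the microtubule genes EB1C and EB1a, named after their values were seen. These examples are not a full list. The counts of 0 and their intervals therefore hold for the groups as drawn up and not for the functions they are named after. Only 163 of the 376 genes have a gene symbol.

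Of the remaining groups, the redox enzymes had 21 of 72 genes called at 10 min (29.2%). Among the 72, 3 were members (4.17%, interval 0.868% to 11.7%), beside 1.37% of all coding genes. APX1, the cytosolic ascorbate peroxidase that removes hydrogen peroxide, had its summit at 0.80, the chloroplast thioredoxin gene TRXF2 at 0.94, and NTRB near its start, as described above. The vacuolar proton pump group had 11 of 19 genes called at 10 min, of which VHA-E3 was in no other list. UBC5, for a ubiquitin-conjugating enzyme, had its summit 25 bp before its end, and iPGAM1, for the glycolytic phosphoglycerate mutase, 40 bp before its end. PAB6, for a poly(A)-binding protein, had its summit 39 bp before its end. Each was the only member of its group, beside the 1.37% of all coding genes. UBC5 was 1 of 37 ubiquitin conjugation genes (2.70%) and iPGAM1 1 of 25 glycolysis genes (4.0%). PAB6 was 1 of 26 genes for mRNA cleavage, poly(A) binding and XRN exonucleases (3.85%). The summits of iPGAM1 and PAB6 both lay inside the next annotated gene as well. SCE1, for the SUMO-conjugating enzyme, was a 10 min only gene outside the groups (0.85), named after its values were seen.

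**Figure D4:**
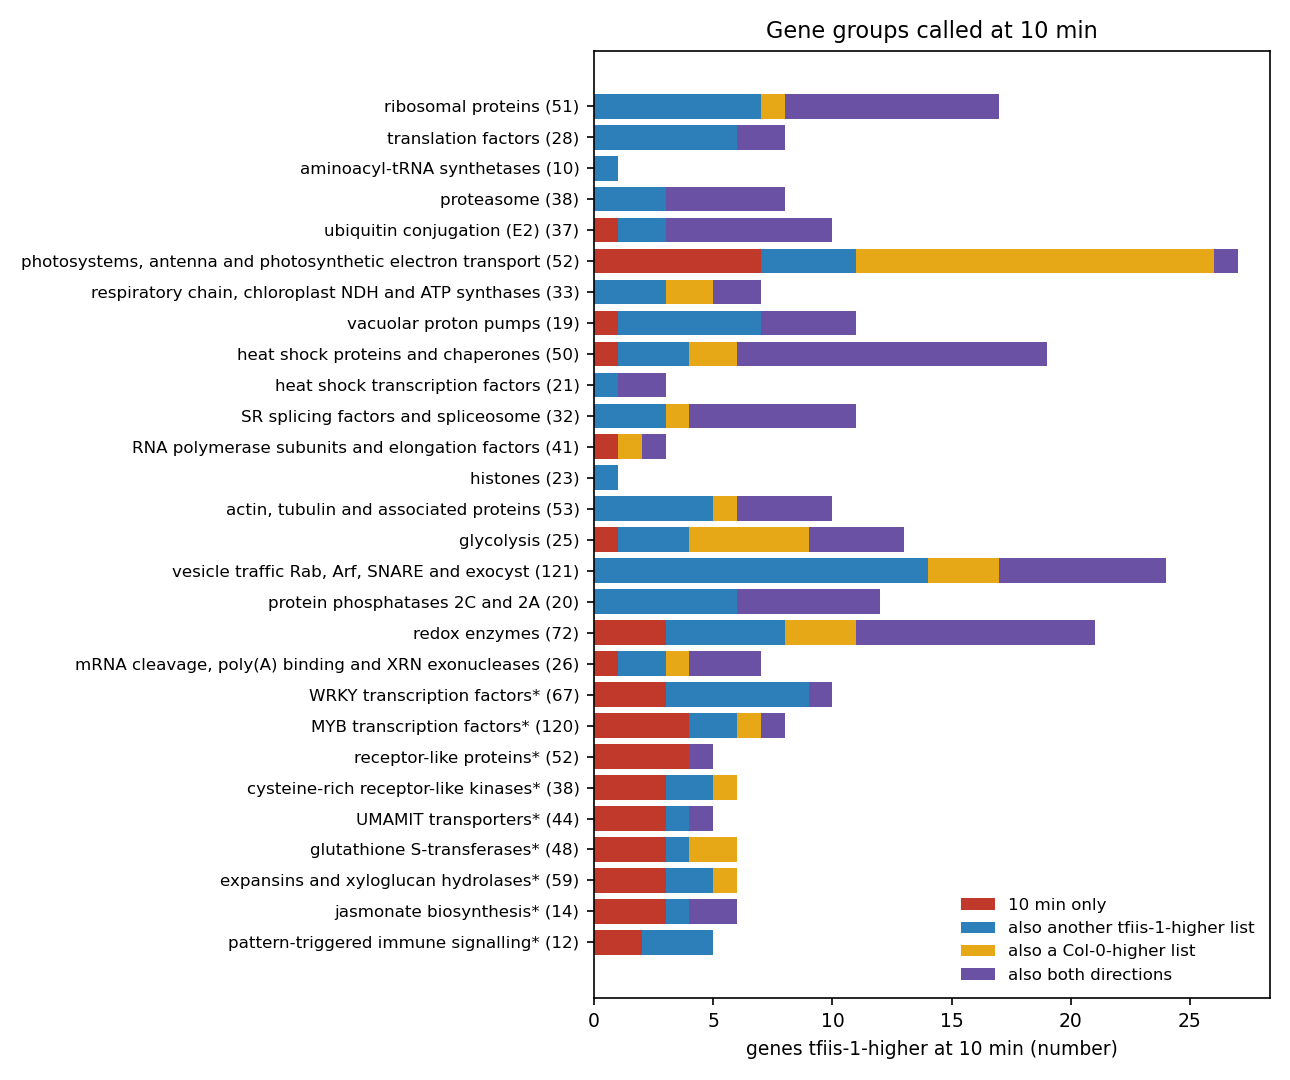
Number of genes called tfiis-1-higher at 10 min (horizontal axis) in each gene group, divided by the other lists they are in; the number in brackets is the group's size and an asterisk marks the 9 groups added after the lists were seen. The 10 min only part is largest in the photosystem group, with 7 genes. It is absent from the ribosomal, proteasome, spliceosome and vesicle groups as drawn up by gene symbol, which are incomplete.

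Other families were visible only on reading the names of the 376 genes, of which 163 (43.4%) have a gene symbol in RefSeq, against 37.8% of all coding genes and 55.2% of the other 10 min genes. The 9 groups that follow were formed after the names were seen, so their counts support nothing beyond themselves. In 7 of the 9 the share of genes called at 10 min was near the 10.9% of all coding genes, from 6.67% of the MYB genes to 15.8% of the cysteine-rich receptor-like kinases. The 10 min only share of these 7 ran from 3.33% of the MYB genes to 7.89% of the cysteine-rich receptor-like kinases, beside 1.37% of all coding genes. Because the groups were formed around members already seen, such shares lie above 1.37% by selection. Jasmonate, a hormone of wounding and defence, is made from plastid lipids by a short chain of enzymes. Of 14 such genes, 6 (42.9%) were called at 10 min and 3 (21.4%, interval 4.66% to 50.8%) were 10 min only. AOS, the allene oxide synthase near the head of the chain, had its summit at 0.95, OPR3, the reductase of its middle, at 0.34, and OPCL1, a ligase that precedes side-chain shortening, at 0.74, and these 3 were in no other list. LOX2 and AOC2 were also called higher in tfiis-1 without heat shock and higher in Col-0 at 3 h. PKT3 was also called higher in tfiis-1 at both later times.

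Genes of immune signalling at the cell surface were a further set. Of 12 genes of pattern-triggered signalling, 5 (41.7%) were called at 10 min and 2 (16.7%, interval 2.09% to 48.4%) were in no other list. BIK1, the cytoplasmic kinase that relays signals from pattern receptors, had summits at 0.52 and 0.94, and MPK3, a MAP kinase further down, had 1 at 0.89. The genes MKK4, MKK5 and RBOHD of the same signalling were called at 10 min and also tfiis-1-higher at 3 h. Of 52 receptor-like protein genes, 5 (9.62%) were called at 10 min and 4 (7.69%, interval 2.14% to 18.5%) were 10 min only. The 4 were RLP31 (0.71), RLP40 (0.17, in a summit shared with the overlapping AT3G24929), RLP54 (0.87) and RLP55 (0.95). Among 38 genes for cysteine-rich receptor-like kinases, 6 (15.8%) were called and CRK2 (0.92), CRK11 (0.88) and CRK19 (0.53) were 10 min only. Both families contain close copies, for which the limit on reads matching several places applies.

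Transcription factor genes included WRKY6, WRKY22 and WRKY70, 3 of 10 WRKY genes called at 10 min of 67 (14.9%), with summits at 0.85, 0.74 and 0.73. WRKY70 is known as a regulator between the salicylate and jasmonate branches of defence. Of 8 MYB genes called of 120 (6.67%), 4 were 10 min only. MYB30, a factor of the hypersensitive response, had summits at 0.70 and 0.91, and MYB96, a regulator of cuticular wax genes, at 0.43 and 0.64. MYB94, its close relative, had its summit 5 bp before its end, and MYB77, which acts in auxin responses, had its at 0.97. Other regulators, named after their values were seen, were the ERF factor gene ORA47 (0.67), the cold-response factor gene CBF2 (0.68) and the auxin response factor genes ARF18 (0.91) and ARF19 (0.92).

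The metabolic and cell wall families were represented by few genes each. Of 48 glutathione S-transferase genes, which conjugate glutathione to reactive compounds, 6 (12.5%) were called at 10 min and GSTU18 (0.88), GSTU19 (0.93) and GSTF9 (0.90) were in no other list. Of 59 expansin and xyloglucan hydrolase genes, which loosen or remodel the wall, 6 (10.2%) were called and EXPA1 (0.83), EXPB1 (0.88) and XTH4 (0.49) were 10 min only. The UMAMIT transporter family gave UMAMIT47 (0.53), UMAMIT44 (0.57 and 0.86) and UMAMIT38 (0.82) of 5 called among 44 (11.4%). Further members, again named after their values were seen, were the auxin importer gene AUX1 (0.94), the ethylene biosynthesis gene ACS6 (0.95), the sulfate transporter gene SULTR1;2 (0.65), the ATP sulfurylase gene APS1 (0.75) and the myrosinase gene TGG1 (0.90). The mRNA decay genes DCP1, of the decapping complex, and CAF1a, a deadenylase, had summits at 0.88 and 0.84 and were named in the same way.

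Close to the annotated end, the nearest summits were those of ADSS, for adenylosuccinate synthase of purine synthesis (4 bp), MYB94 (5 bp), AT4G19530 (7 bp) and AT1G62030 (8 bp). Annotated ends are single positions for transcripts that can end at several places, so single base pairs carry little weight here.

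**Figure D5:**
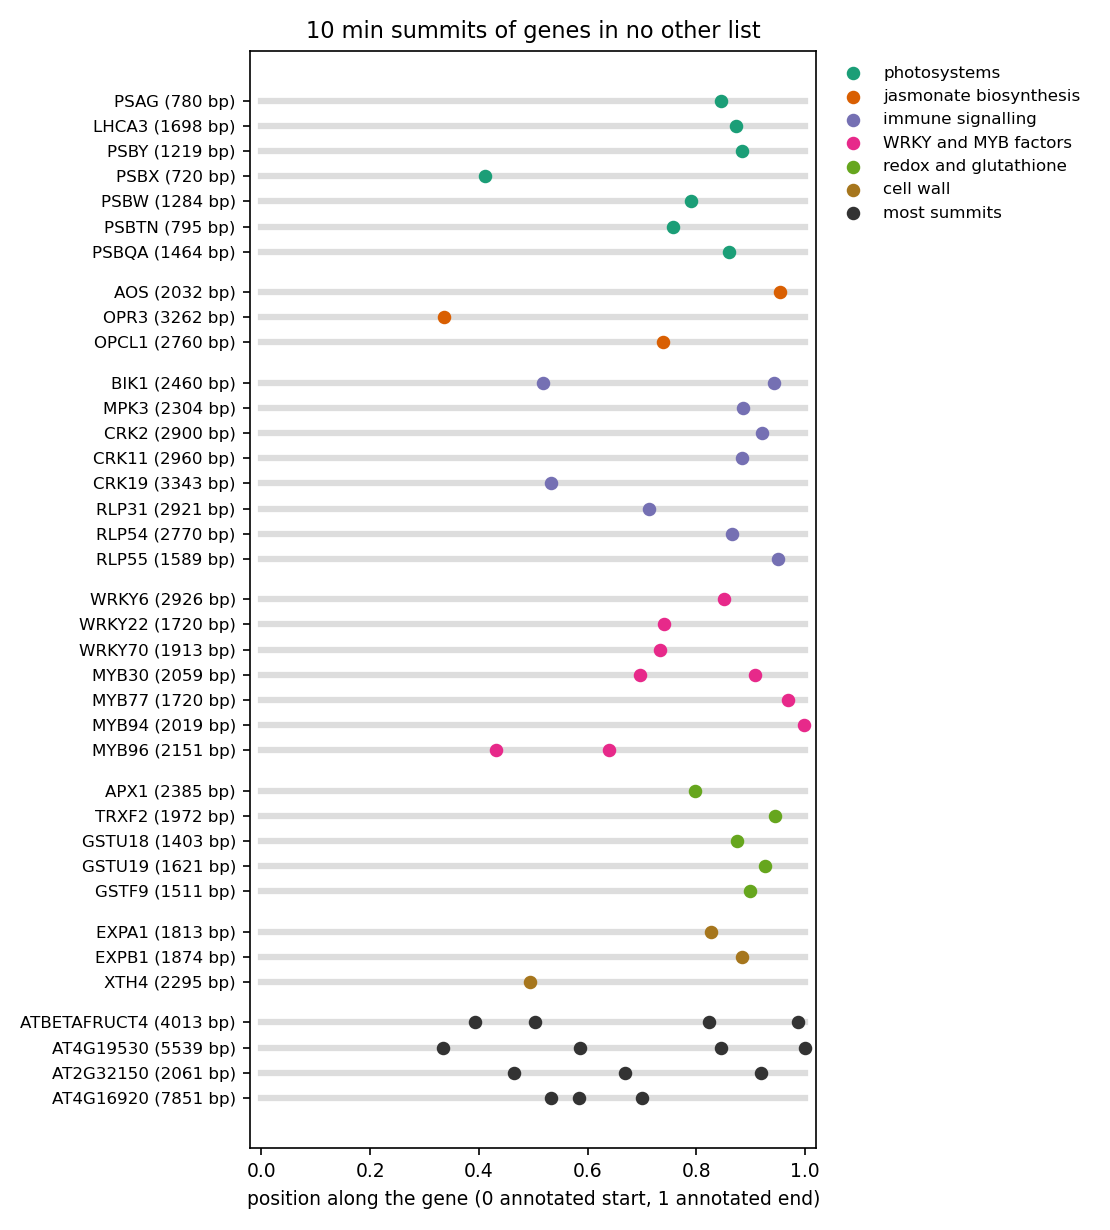
Position of each 10 min tfiis-1-higher summit (circles) along the annotated gene (grey line, from 0 at the start to 1 at the end) in named 10 min only genes, grouped by role, with gene length in brackets. The genes drawn are a selection, and RLP40 (0.17) and NTRB (0.02), which belong to groups shown, are left out. The figure therefore does not give the share of summits near gene starts. Most circles drawn lie past 0.7. Among those further upstream are PSBX at 0.41, OPR3 at 0.34, CRK19 at 0.53, XTH4 at 0.49 and the summits of MYB96. The first summits of BIK1, MYB30 and the genes with 3 or 4 summits also lie there.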

How the data were processed

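S2P RNAPII ChIP-seq of 24 ChIP and 8 input libraries was given as 8 deposited lists of summit positions, each with the gene that holds it and its strand; the authors' score in 2 Col-0-higher lists was not used for any value. Per the labels' protocols, chromatin was crosslinked with formaldehyde and immunoprecipitated. Per the submitters' processing notes, Bowtie2, FastQC, MACS3 and deepTools were used with TAIR10. Not given in the sources used here are their versions and roles, the threshold, the scaling between genotypes, the pooling of replicates and the treatment of inputs, duplicates and multi-mapped reads. Scaling and pooling act on every call, and so on which genes are in no other list.

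Repeated lines were counted once, and a summit inside 2 overlapping genes was counted in each. Gene starts, ends, symbols and classes came from the RefSeq table of TAIR10.1: all 1010 gene intervals given in the lists equal it, and all 29921 summit and gene pairs lay inside their gene. Chromosome positions are those of the lists. The nearest summit of another list was sought among summits named for other genes, within 500 bp. Python 3.11.15, numpy 2.4.6, pandas 2.3.3, scipy 1.17.1 and matplotlib 3.10.9 were used, and the position computation was tested on simulated data.

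The members and gene lists were chosen with earlier results of these data known. Gene groups were taken by RefSeq symbols and synonyms. Of 28 groups, 9 were added, 16 were trimmed of genes that matched by name only and 6 were renamed to fit what they hold, all after the lists were seen. A rule set the first genes to name: the 10 with the most summits (ties by shorter gene) and up to 4 per group. It also took the 3 shortest and 3 longest, and the 4 most upstream and 4 closest to the end. All other genes named, with those of the added groups and those marked in the text, were named after their values were seen. Among them are LHCA3, PSBW, PSBQA, JAL34, JR1, DCP1, CAF1a and EXO70E2. No sequences were used.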

Additional observations from a re-analysis of the deposited data

How the results depend on the processing

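Over the 38 alternatives run, 34 values stayed within the reported value's interval or, for counts, within 1.5 times. They used 1 position per gene, summits within 300 bp merged, genes of at least 1000 bp, summits named for 1 gene only, and genes with no summit of another list within 500 bp. Merging could change no value, because no 10 min only gene had summits within 300 bp of each other, so its agreement carries no weight. With no summit of another list within 500 bp, the share of summits in the first 10% of the gene was 6.51% in place of 11.1%. With no other annotated gene within 500 bp, an alternative chosen after seeing the data, it was 0.952%. The share of summits near a summit of another list was 7.0% with a window of 250 bp and 27.1% with 1000 bp, in place of 17.9% with 500 bp; a wider window takes in more summits by construction. The median position ranged from 0.77 to 0.82 over the alternatives and the share in the last 10% from 28.5% to 34.6%. No paired analysis was possible because the lists hold no value per library, and for the same reason no replicate could be left out. Promoter motifs were not run, because no promoter sequence was used here. Depth is unknown, so that genes absent from the other 7 lists may lie just under the threshold there.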
